A study of Mus musculus with 18 samples.

Results

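FI organoids are mixed cultures of spherical and budding organoids that were grown from progenitor cells of the mouse fetal intestine, and here they are set against mouse embryonic fibroblasts (MEFs), the cell type that the study set out to convert into intestinal progenitors. The samples were chosen by their titles, 3 arrays of FI organoids and 3 arrays of MEFs out of the 18 arrays of the series. MEF arrays 2 and 3 were nearly identical and were averaged, which leaves 3 FI samples and 2 MEF samples. Budding organoids grown from adult intestinal crypts (crypt organoids, 3 arrays) were used to show where FI organoids differ from the adult epithelium. The other 9 arrays, of hepatocyte-like cells made from MEFs and of organoids from induced intestinal stem cells and from induced fetal intestinal progenitors, enter through the shared estimate of the spread between replicates.

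Per the labels, FI organoids, crypt organoids and MEFs are all of strain C57BL/6, and no transgene or treatment is named for any of them. Spherical and budding organoids were hybridised together in each FI sample. The gut segment, the fetal age and the passage are not part of the labels, and they do not name separate animals or cultures for the samples. The p-values therefore measure the spread between these samples, which may be technical in part, although the FI samples differ among themselves in sex-linked and regional genes described below. The MEF arrays are marked as analysed again by the submitters.

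The intestinal epithelium is a single layer of endodermal cells joined by cadherins, claudins and keratins, and its stem cells give rise to absorptive enterocytes and to secretory Paneth, goblet, enteroendocrine and tuft cells. Progenitors from the fetal gut grow in culture as hollow spheres that express a fetal set of genes, and with maturation they form buds that resemble crypts. Fibroblasts are mesenchymal cells that secrete collagens and other matrix proteins and keep their identity through other transcription factors.

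RNA was labelled with Cy3 and hybridised to 1-colour arrays, and a level below is the log2 intensity of a gene's probe minus the 75th percentile of its array, so that a level of 0 marks that percentile and a difference of 1 is a 2-fold difference. The 75th percentile lay at an intensity of 1083.6 to 1169.6 on the FI arrays and 805.3 to 1484.4 on the MEF arrays, and 65.42 to 67.29% of FI spots and 60.86 to 69.34% of MEF spots were well above background. The FI arrays share 1 slide and were scanned on another scanner model than the MEF arrays, which lie on 2 slides, so scanner, slide and culture cannot be told apart. After scaling, 7 spike-in controls were lower on the FI arrays by a median log2 difference of -1.0, with a range of -1.21 to -0.65, so where no change lies depends on the scaling by about this size. Across 15232 genes the levels of the FI arrays correlated with each other at 0.978 to 0.985 and with the MEF samples at 0.629 to 0.635 (Pearson, across genes, which are not independent replicates).

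Nearly 1 in 2 tested genes differed between FI organoids and MEFs. Of 15232 genes tested, 7179 (47.1%) passed both a log2 change of 1 or more and a limma p that stayed under 0.05 after Benjamini-Hochberg adjustment, and are named called below. Of these, 3552 were higher (23.3%) and 3627 were lower (23.8%) in FI organoids, and the median change of all tested genes was 0.03. Called changes of at least 8-fold numbered 1283 higher and 1722 lower. The samples of the 2 groups did not overlap for 12283 genes (80.6%), so separation of the samples says little of any single gene here. An exact rank-sum test of 3 against 2 samples cannot give a two-sided p below 0.2. The share of calls that were higher was 49.5% under the 75th percentile, 62.3% when arrays were scaled to their median and 77% when they were scaled to the spike-ins, and the last 2 scalings moved the median change of all genes to 0.39 and 0.99.

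**Figure D1:**
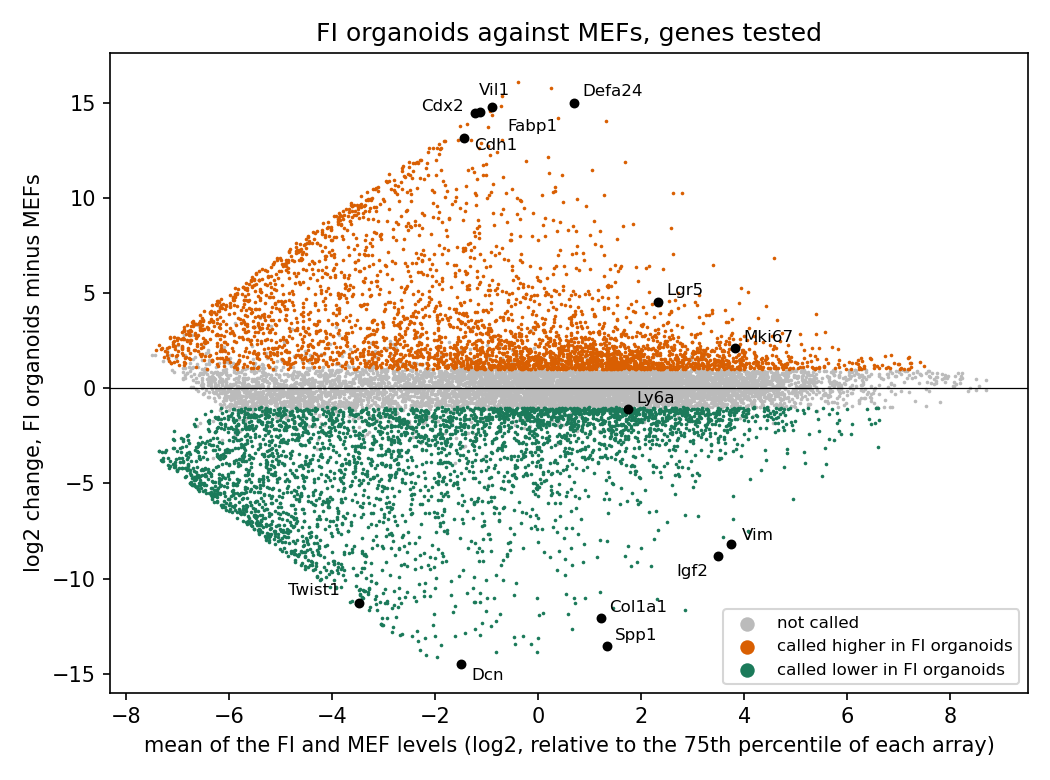
Log2 change between FI organoids and MEFs (vertical) against the mean of the FI and MEF levels (horizontal, log2 relative to the 75th percentile of each array) for the 15232 genes tested. Orange points were called higher in FI organoids, green points lower, grey points were not called, with Defa24, Vil1, Cdx2, Fabp1 and Cdh1 at the upper edge, Dcn, Spp1, Col1a1 and Twist1 at the lower edge and Ly6a among the genes not called.

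Epithelial genes were high on every FI array and many of them were near background in MEFs. All 32 tested members of a list of epithelial adhesion and keratin genes were higher in FI organoids, with a median change of 8.88. Cdh1, which encodes E-cadherin, had levels of 5.06, 5.24 and 5.17 in FI organoids 1 to 3, against -7.85 and -8.22 in MEF 1 and in the averaged MEF 2 and 3. It was well above background on no MEF array and at least 2720-fold higher in FI organoids (limma, adjusted p = 1.78e-14), the probe lying at chr8:109193812-109193871 of mm9. Such lower bounds are given wherever no array of the dimmer group was well above background. Where some of its arrays were, the measured difference is given with their number, and its size depends in part on the background of the others. The FI samples lay within a narrow band and far above both MEF samples.

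Epcam, an epithelial adhesion molecule, reached 5.29, 5.09 and 5.11 in FI organoids and -7.71 and -7.20 in MEFs, and was at least 2730-fold higher (adjusted p = 9.92e-11). Cldn7, a claudin of epithelial junctions, rose by 11.51 ± 0.52 on the log2 scale (standard error, as for all changes below), and the junction scaffold gene Tjp3 by 10.62 ± 0.62. The keratin genes Krt8 and Krt19 were also measurable in MEFs and had changes of 10.29 ± 0.42 and 5.27 ± 0.23. Among the FI arrays this list varied little: the median range over its members was 0.27, against 0.41 over the 15431 genes that were well above background on at least 1 FI array. Tjp3 was well above background on 2 of the 3 MEF arrays.

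Transcription factors of the gut endoderm were higher in FI organoids for 30 of 32 tested members of their list, with a median change of 6.32, and the other 2 members, Tcf7l2 and Klf4, were not called. Cdx2, the homeobox factor that specifies intestine, had levels of 6.24, 5.80 and 5.98 in FI organoids and -8.05 and -8.86 in MEFs. It was well above background on no MEF array and at least 4900-fold higher (adjusted p = 5.79e-12, probe at chr5:148112547-148112606 of mm9). Hnf4a, the nuclear receptor that drives the enterocyte programme, had levels of 3.27, 3.20 and 3.45 in FI organoids and -7.81 and -8.83 in MEFs, at least 753-fold higher (adjusted p = 4.90e-08). For both factors the 3 FI samples lay close together, and the groups were far apart.

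The caudal factor Cdx1 was at least 93.3-fold higher. The forkhead pioneer factor Foxa2 changed by 7.89 ± 1.55. Gata4 and Gata6, zinc finger factors of endoderm and heart, were both measurable in MEFs. Gata6 had levels of 3.61, 3.46 and 3.68 in FI organoids and -0.55 and 0.18 in MEFs, a change of 3.77 ± 0.29, and Gata4 had -2.45, -1.29 and -1.45 in FI organoids and -5.99 and -5.97 in MEFs, a change of 4.25 ± 0.62. All 9 members of a list of endoderm factors used or tried in cell conversion, among them Hnf4a, Foxa2, Gata4, Gata6 and Cdx2, were higher in FI organoids. Foxa2 and Gata4 were well above background on 2 of the 3 MEF arrays.

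**Figure D2:**
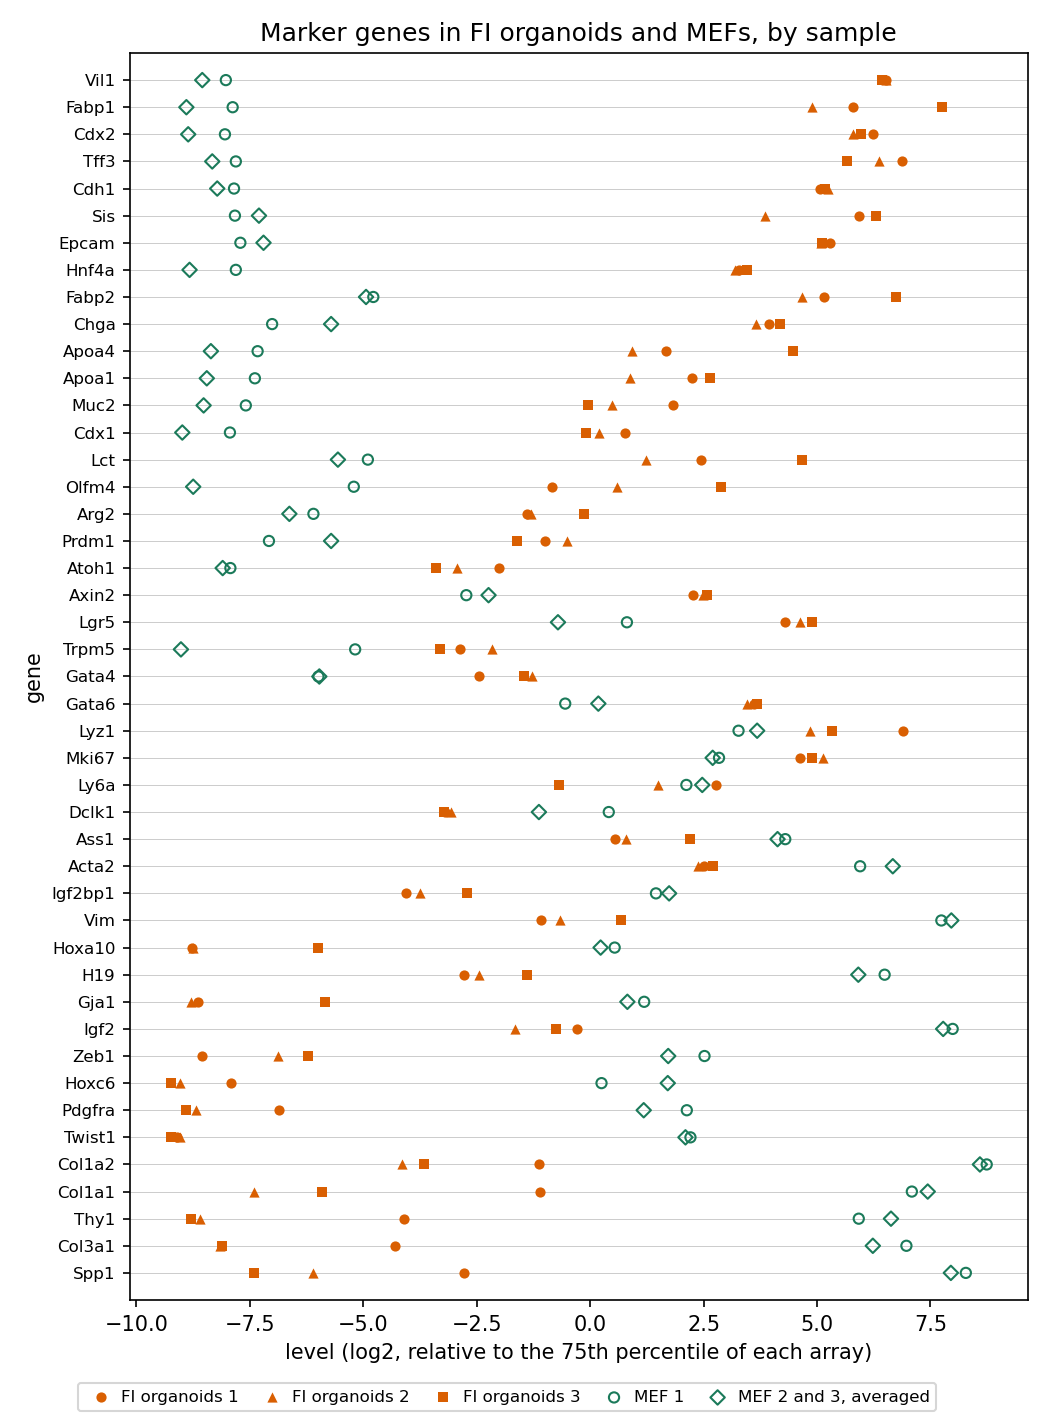
Levels (log2, relative to the 75th percentile of each array) of 45 marker genes in each FI sample (filled symbols) and each MEF sample (open symbols), ordered by the change between the groups. Epithelial, enterocyte and goblet genes stand at the top with FI samples far to the right of MEF samples, collagens and Spp1 stand at the bottom with the reverse order, and at Ly6a the groups overlap.

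Absorptive enterocyte genes made up several of the largest differences. In a list of brush border structure and digestion genes, 29 of 35 tested members were higher in FI organoids and none was lower, with a median change of 7.05. Under quantile normalization, and in the values as normalized by the submitters, 1 member was lower. Vil1, which encodes the microvillus protein villin, had levels of 6.52, 6.52 and 6.43 in FI organoids and -8.03 and -8.55 in MEFs, at least 6850-fold higher (adjusted p = 4.24e-11). Sis, the disaccharidase sucrase-isomaltase, had 5.93, 3.85 and 6.30 in FI organoids and -7.83 and -7.30 in MEFs, at least 3130-fold higher (adjusted p = 4.32e-09). FI organoids 2 had the lowest Sis level of the 3 by over 2 log2 units and still lay far above the MEFs. Lgals2, a galectin of the gut epithelium, rose by 14.22 ± 0.16, and the mucin Muc13 was at least 1550-fold higher. Lgals2 was well above background on 1 of the 3 MEF arrays.

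Lipid absorption genes were higher in 21 of 25 tested members, lower in 1 and not called in 3, with a median change of 5.57. Fabp1, a fatty acid binding protein of enterocytes and hepatocytes, had levels of 5.79, 4.89 and 7.75 in FI organoids and -7.88 and -8.90 in MEFs, at least 5380-fold higher (adjusted p = 4.93e-05). Fabp2, its intestinal relative, had 5.15, 4.67 and 6.75 in FI organoids and -4.78 and -4.94 in MEFs and changed by 10.39 ± 0.56. Apoa4, a chylomicron apolipoprotein, had 1.67, 0.93 and 4.47 in FI organoids and -7.33 and -8.36 in MEFs and was at least 390-fold higher. For all 3 genes FI organoids 3 stood highest, FI organoids 2 lowest, and no FI sample came near a MEF sample. The sterol transporter gene Abcg5 changed by 10.49 ± 0.67 and Apoa1, of high density lipoprotein, was at least 289-fold higher. Apoe, the apolipoprotein of many non-intestinal cells, was the member that fell, with a change of -5.91 ± 0.95. Abcg5 was well above background on 2 of the 3 MEF arrays.

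Enterocyte genes of the suckling and of the weaned gut were both measured. Of 21 tested genes typical of the suckling stage, 10 were higher, 7 lower and 4 not called (median 0.90), and of 17 typical of weaning, 15 were higher, 1 lower and 1 not called (median 7.16). Lct, the lactase of the suckling gut, had levels of 2.44, 1.23 and 4.66 in FI organoids and -4.90 and -5.56 in MEFs, a change of 8.0 ± 1.45 (adjusted p = 0.000302). Cps1, carbamoyl phosphate synthase of the urea cycle, was at least 1480-fold higher, and Clps, pancreatic colipase, changed by 9.75 ± 0.47. Prdm1, which encodes the factor Blimp-1 that holds back the adult programme in the suckling gut of the mouse, had -1.0, -0.51 and -1.62 in FI organoids and -7.08 and -5.71 in MEFs, a change of 5.36 ± 0.55. In each of these genes the FI samples lay above both MEF samples. Clps and Prdm1 were well above background on 2 of the 3 MEF arrays.

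The 7 suckling-stage genes that fell include genes of endocytosis and lysosomes that many cell types use. The endocytic adaptor Dab2 changed by -4.62 ± 1.08, and the receptor gene Lrp2 was at least 24-fold lower. Ass1, argininosuccinate synthase, had 0.54, 0.78 and 2.21 in FI organoids and 4.30 and 4.13 in MEFs, a change of -3.03 ± 0.53. Among weaning-stage genes, the sulfotransferase gene Sult1b1 was at least 801-fold higher and the sodium-glucose cotransporter Slc5a1 at least 520-fold. Arg2, an arginase that appears at weaning, had -1.40, -1.30 and -0.13 in FI organoids and -6.10 and -6.63 in MEFs, a change of 5.43 ± 0.94. Cyp27b1, which activates vitamin D, was the member that fell, with a change of -1.35 ± 0.15, and no member was lower under normexp background correction, median scaling or spike-in scaling. Arg2 was well above background on 1 of the 3 MEF arrays.

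Promoters of 3 of these enterocyte genes and of Col3a1, a fibroblast collagen described below, are shown so that the letters in front of genes at both ends of the comparison can be read. Each is the 250 bases before the annotated start from RefSeq on GRCm38.p6, written 5′ to 3′ on the strand of the gene, with motif matches in capitals.
Sis (chr3:72967864-72968113, minus strand): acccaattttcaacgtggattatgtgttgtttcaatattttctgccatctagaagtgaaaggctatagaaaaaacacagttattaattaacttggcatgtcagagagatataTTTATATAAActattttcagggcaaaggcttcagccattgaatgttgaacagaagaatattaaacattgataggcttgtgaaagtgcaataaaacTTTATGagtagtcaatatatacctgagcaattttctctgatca
Lct (chr1:128328319-128328568, minus strand): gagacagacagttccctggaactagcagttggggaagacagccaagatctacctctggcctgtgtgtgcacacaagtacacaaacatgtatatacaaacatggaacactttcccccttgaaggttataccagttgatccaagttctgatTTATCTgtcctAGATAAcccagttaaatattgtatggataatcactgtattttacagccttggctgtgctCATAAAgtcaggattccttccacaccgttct
Fabp1 (chr6:71199629-71199878, plus strand): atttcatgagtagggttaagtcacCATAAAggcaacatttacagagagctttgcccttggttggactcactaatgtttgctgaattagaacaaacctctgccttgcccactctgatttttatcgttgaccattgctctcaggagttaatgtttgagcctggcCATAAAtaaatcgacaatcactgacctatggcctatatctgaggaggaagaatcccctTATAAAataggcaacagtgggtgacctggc
Col3a1 (chr1:45311288-45311537, plus strand): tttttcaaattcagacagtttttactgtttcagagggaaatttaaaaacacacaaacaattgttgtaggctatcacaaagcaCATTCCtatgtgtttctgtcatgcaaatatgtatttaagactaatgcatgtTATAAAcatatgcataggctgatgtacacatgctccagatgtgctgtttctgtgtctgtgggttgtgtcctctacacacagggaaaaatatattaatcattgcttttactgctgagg

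The motifs searched on both strands, each with the share of all 32851 promoters of 250 bases that hold it, were CAAAGTC for HNF4 (3.84%), TTTATG for CDX (10.8%), AGATAA for GATA (9.99%), CAGGTG for the Snail E-box (17.2%), GGAATG for TEAD (12.6%), TGAGTCA for AP-1 (4.46%) and TATAAA for the TATA box (12.4%). The Sis promoter held a CDX match from 43 to 38 bases before the start and 2 overlapping TATA box matches. The Lct promoter held a CDX match on the opposite strand and 2 GATA matches, and the Fabp1 promoter 2 CDX matches and a TATA box match from 30 to 25 bases before the start. The Col3a1 promoter held a TEAD match and a TATA box match and none of the HNF4, CDX or GATA words. These matches describe the letters in these windows, and binding of the factors was not measured. Of the 15232 tested genes, 12068 matched a promoter of the RefSeq table.

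Secretory cells were represented by Paneth, goblet and enteroendocrine genes, and less clearly by tuft cell genes. Of 24 tested Paneth cell genes 21 were higher in FI organoids and none was lower, with a median change of 9.85. The antimicrobial alpha-defensins led the ranking of rises, in which lower bounds were used. Defa24 had levels of 8.29, 8.12 and 8.24 in FI organoids and -6.33 and -7.30 in MEFs and was at least 22100-fold higher (adjusted p = 1.52e-14, probe at chr8:22845161-22845779 of mm9). Defa5 was at least 21600-fold higher, Defa23 at least 15500-fold and Defa21 at least 9690-fold, while Defa20, well above background on 2 MEF arrays, changed by 14.04 ± 0.24. Alpha-defensin genes are near-identical in sequence, so their probes may share transcripts and their single values are uncertain.

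Other products of crypt base and secretory cells stood beside the defensins. Itln1, an intelectin, was at least 8020-fold higher and Reg3b, an antibacterial lectin, at least 6340-fold, with levels of 7.39, 7.48 and 4.27 in FI organoids and -7.65 and -8.81 in MEFs. Reg3b was lower in FI organoids 3 than in the other 2 by over 3 log2 units. Lyz1, the Paneth cell lysozyme, had 6.89, 4.84 and 5.33 in FI organoids and 3.27 and 3.68 in MEFs, a change of 2.22 ± 0.82 (adjusted p = 0.0285), and its probe may also read the closely related macrophage gene Lyz2. The Lyz1 call was lost without FI organoids 1 (adjusted p = 0.107), without MEF 1 (0.128) and without the averaged MEF 2 and 3 (0.0705).

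Goblet cell genes were higher in 22 of 29 tested members, lower in 2 and not called in 5 (median 5.88). Tff3, the trefoil peptide of goblet cells, had 6.87, 6.36 and 5.67 in FI organoids and -7.81 and -8.33 in MEFs and was at least 6000-fold higher (adjusted p = 9.92e-11). Muc2, the main gel-forming mucin of the gut, had 1.82, 0.49 and -0.05 in FI organoids and -7.59 and -8.52 in MEFs and was at least 128-fold higher (adjusted p = 2.74e-08). Agr2, which folds mucins, was at least 1960-fold higher and Spink4 changed by 11.12 ± 0.93. Tff3, Muc2 and Agr2 were each highest in FI organoids 1 and lowest in FI organoids 3. The 2 members that fell, Sytl2 (change -1.74 ± 0.48) and Creb3l1 (-1.61 ± 0.56), act in vesicle traffic and secretory stress in many cells, and the number lower was 1 under median scaling and 0 under spike-in scaling. Spink4 was well above background on 1 of the 3 MEF arrays.

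Enteroendocrine genes were higher in 31 of 34 tested members, lower in 2 and not called in 1 (median 5.51). Chga, the granule protein chromogranin A, had 3.95, 3.66 and 4.18 in FI organoids and -7.01 and -5.71 in MEFs, a change of 10.29 ± 0.59 (adjusted p = 8.62e-09), and Chgb changed by 11.92 ± 0.38. Hormone genes were present but uneven: Gcg, which encodes proglucagon, had 5.63, 1.35 and 2.40 in FI organoids and -7.72 and -8.61 in MEFs, and Gip, the glucose-dependent insulinotropic peptide, had 1.33, 3.13 and 4.46 in FI organoids and -7.90 and -8.40 in MEFs. Gcg was at least 666-fold and Gip at least 599-fold higher, and Gcg peaked in FI organoids 1 while Gip peaked in FI organoids 3. Among the members that fell was Cpe, a prohormone processing enzyme that fibroblasts also express, with a change of -3.66 ± 0.61. Chga was well above background on 2 of the 3 MEF arrays.

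Tuft cell genes gave no common direction, with 7 higher, 4 lower and 9 not called of 20 tested, and a median of -0.16 that turned positive under quantile normalization (0.20), median scaling (0.20) and spike-in scaling (0.80). Trpm5, the taste channel of tuft cells, had -2.86, -2.17 and -3.32 in FI organoids and -5.18 and -9.02 in MEFs, a change of 4.32 ± 0.80 (adjusted p = 0.000345). Dclk1, a tuft cell kinase of adult gut that mesenchymal cells express too, had -3.20, -3.07 and -3.22 in FI organoids and 0.41 and -1.13 in MEFs, a change of -2.80 ± 0.38. The tuft cell regulator Pou2f3 was well above background on no FI or MEF array. Among genes of the Notch pathway and the secretory switch, 13 of 23 tested were higher, 6 lower and 4 not called (median 1.82). Atoh1, the switch factor for secretory fate, had -2.0, -2.93 and -3.39 in FI organoids and -7.93 and -8.10 in MEFs and was at least 11.1-fold higher, the Notch ligand genes Jag2 and Dll1 changed by 7.01 ± 0.55 and 5.14 ± 0.43, and the Notch target Hey1 by -4.02 ± 0.58. Trpm5 was well above background on 1 of the 3 MEF arrays and Jag2 was well above background on 2 of the 3 MEF arrays.

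Stem cell and Wnt target genes were higher in 21 of 30 tested members, lower in 2 and not called in 7 (median 2.46). Axin2, a feedback gene of Wnt signalling, had 2.27, 2.49 and 2.57 in FI organoids and -2.73 and -2.24 in MEFs, a change of 4.93 ± 0.83 (adjusted p = 0.000175). Olfm4, a marker of intestinal stem cells, had -0.84, 0.60 and 2.89 in FI organoids and -5.21 and -8.75 in MEFs, a change of 7.87 ± 1.33 (adjusted p = 0.000172). The Wnt targets Sp5 and Rnf43 changed by 10.51 ± 1.58 and 7.86 ± 0.52. Axin2 was alike in the 3 FI samples, while Olfm4 spread over more than 3 log2 units among them. Olfm4 and Sp5 were well above background on 1 of the 3 MEF arrays.

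Lgr5, the receptor that marks cycling intestinal stem cells, had levels of 4.30, 4.62 and 4.90 in FI organoids and 0.81 and -0.71 in MEFs. The FI samples were alike and lay above both MEF samples, which differed from each other more than the FI samples did. Its change of 4.56 ± 1.86 passed the threshold narrowly (adjusted p = 0.0442), with an error that is pooled over all 6 groups of the series. The call was lost when any 1 sample of either group was left out and without the filter on dim probes (adjusted p = 0.0513 to 0.197). The 2 members that fell were Fstl1, a secreted glycoprotein of mesenchyme, with a change of -13.12 ± 0.55, and the adhesion receptor Cd44 (-2.19 ± 0.38). Fstl1 was well above background on 2 of the 3 FI arrays.

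Genes of the cell cycle were higher in 19 of 37 tested members, lower in 5 and not called in 13, with a median of 1.03. Mki67, a marker of cycling cells, had 4.63, 5.14 and 4.89 in FI organoids and 2.84 and 2.70 in MEFs, a change of 2.11 ± 0.28 (adjusted p = 2.29e-05). The replication licensing genes Cdt1 and Mcm6 changed by 3.16 ± 0.22 and 2.14 ± 0.17, and the FI samples lay above the MEF samples in each. Cdkn2a and Cdkn2b, cell cycle inhibitors that build up in cultured fibroblasts, had changes of -5.67 ± 0.77 and -2.96 ± 0.72. Under spike-in scaling 30 members were higher and 2 lower, and without the averaged MEF 2 and 3 the number lower was 3.

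**Figure D3:**
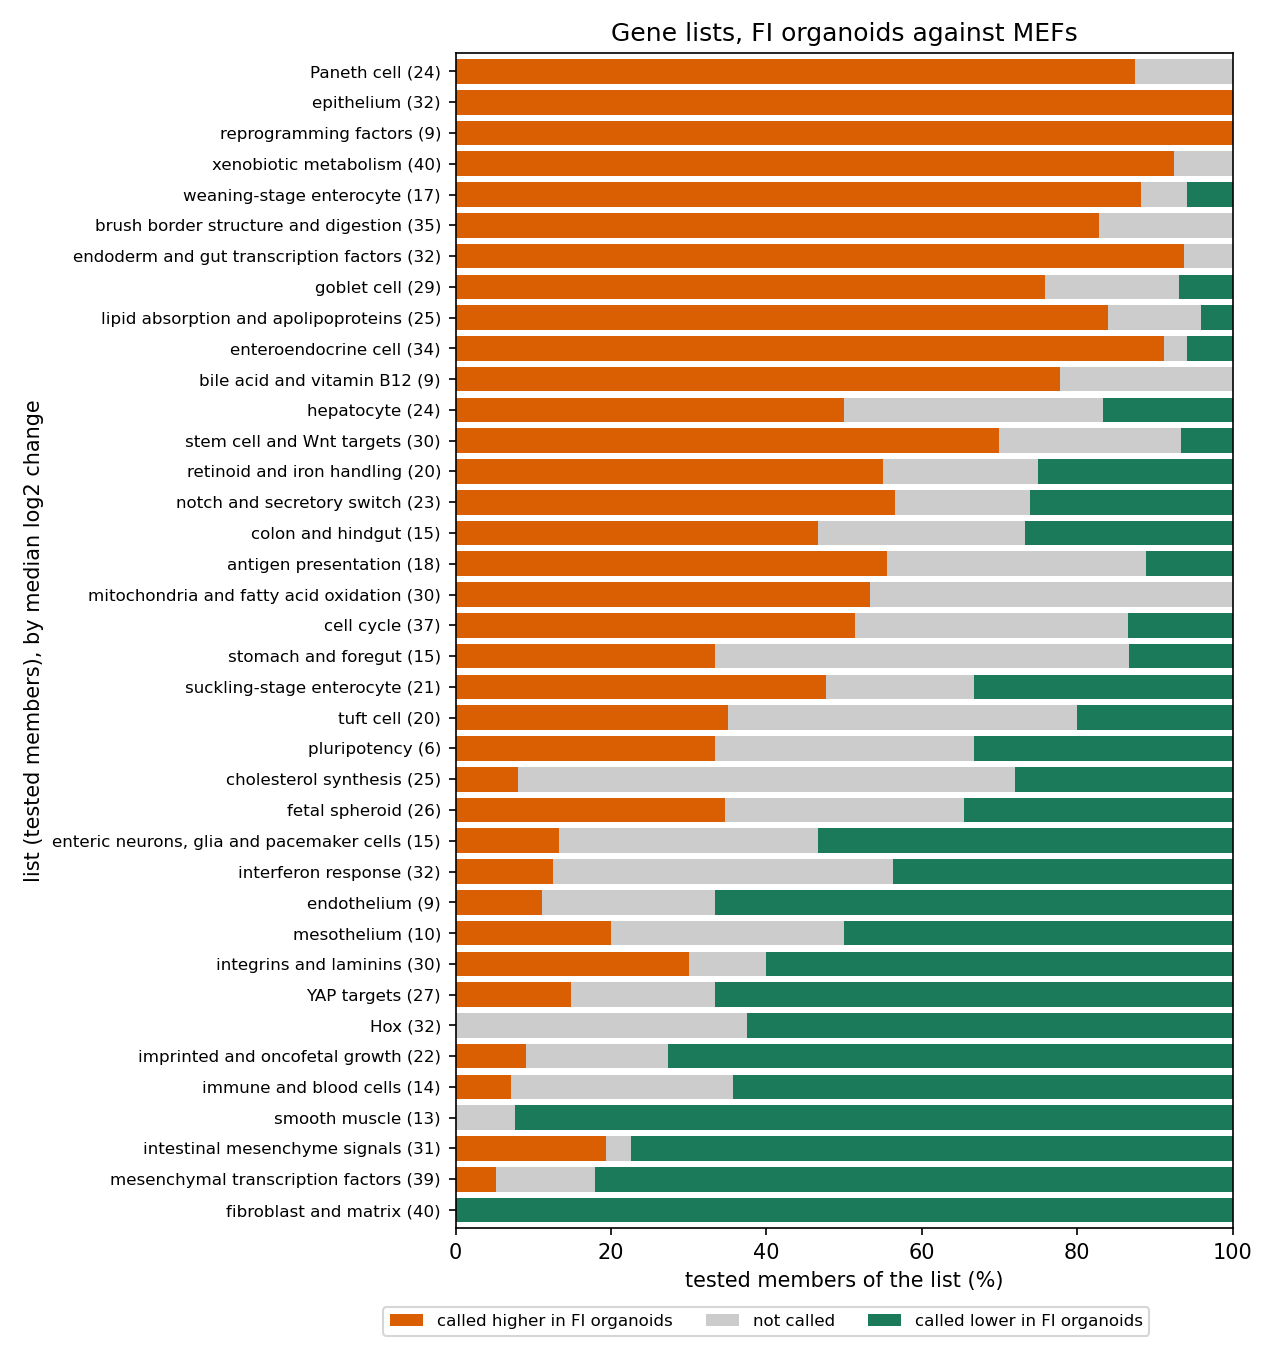
Share of the tested members of each of 38 gene lists that were called higher in FI organoids (orange), not called (grey) or called lower in FI organoids (green), with lists ordered by their median log2 change and the number of tested members in brackets. The Paneth cell, epithelium and endoderm factor lists are nearly all orange at the top, the fibroblast and mesenchymal factor lists mostly green at the bottom, and the fetal spheroid and tuft cell lists divide among the 3 classes.

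Genes known as markers of fetal intestinal spheroids did not set FI organoids apart from MEFs as a group: 9 of 26 tested members were higher, 9 lower and 8 not called, with a median of -0.71 that became 0.25 under spike-in scaling. Krt7, a keratin of simple ducts, had 6.42, 6.17 and 5.84 in FI organoids and -1.85 and 0.03 in MEFs, a change of 7.05 ± 0.64 (adjusted p = 6.80e-07). The epidermal growth factor family ligand gene Areg changed by 5.89 ± 0.74 and Bex1 by 4.98 ± 1.19. Ly6a, the surface antigen Sca-1, had 2.78, 1.49 and -0.68 in FI organoids and 2.12 and 2.47 in MEFs, so the groups overlap, and the change of -1.09 ± 1.17 was not called (adjusted p = 0.421).

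Gja1 and Spp1, further markers of fetal spheroids, were far lower in FI organoids than in fibroblasts. Gja1, the gap junction protein connexin 43, had -8.65, -8.80 and -5.84 in FI organoids and 1.19 and 0.82 in MEFs, a change of -8.77 ± 0.92 (adjusted p = 2.54e-06). Spp1, the secreted phosphoprotein osteopontin, had -2.78, -6.11 and -7.41 in FI organoids and 8.28 and 7.95 in MEFs, a change of -13.55 ± 1.97 (adjusted p = 4.78e-05). Spp1 was highest in FI organoids 1 among the FI samples and still lay over 10 log2 units below the MEFs. Targets of the YAP co-activator were lower in 18 of 27 tested members, higher in 4 and not called in 5 (median -2.93). The receptor kinase Axl changed by -8.89 ± 0.74, Igfbp3 by -7.91 ± 1.22 and the muscle ankyrin repeat gene Ankrd1 by -7.82 ± 0.84. Gja1 was well above background on 1 of the 3 FI arrays and Spp1, Axl and Ankrd1 were well above background on 2 of the 3 FI arrays.

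Imprinted and oncofetal growth genes were lower in 16 of 22 tested members, higher in 2 and not called in 4 (median -3.56). Igf2, the fetal insulin-like growth factor, had -0.29, -1.65 and -0.76 in FI organoids and 7.99 and 7.78 in MEFs, a change of -8.79 ± 1.47 (adjusted p = 0.000154). H19, the imprinted non-coding RNA beside it, had -2.78, -2.46 and -1.39 in FI organoids and 6.49 and 5.91 in MEFs, a change of -8.41 ± 0.74 (adjusted p = 4.81e-07). The 2 neighbours had the same order of groups, with no overlap, and their lowest FI values were in different samples. Igf2bp1, an RNA-binding protein of fetal tissues, had -4.07, -3.75 and -2.72 in FI organoids and 1.45 and 1.74 in MEFs, a change of -5.11 ± 0.96. Mest was at least 4390-fold lower and Meg3, an imprinted non-coding RNA, had a change of -8.80 ± 0.74, while Afp, alpha-fetoprotein, rose by 6.74 ± 1.37 and the placental growth restrictor Phlda2 by 3.93 ± 0.53. Afp was well above background on 2 of the 3 MEF arrays.

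The fibroblast programme was almost absent from FI organoids. All 40 tested genes of a list of fibroblast and matrix genes were lower, also without FI organoids 1, with a median change of -11.87. The summed signal of the list, relative to the 75th percentile, was 5.53, 2.86 and 3.75 in FI organoids 1 to 3, against 2660, 2530 and 2510 on the 3 MEF arrays. Of the 40 genes, 26, 15 and 19 were well above background in FI organoids 1 to 3, and 15, 13 and 16 in crypt organoids 1 to 3. The summed signal of the list in crypt organoids 1 to 3 was 3.36, 2.35 and 2.56. In these bulk samples fewer cells of a type and less RNA per cell cannot be told apart.

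Col1a1, a chain of type I collagen, had -1.10, -7.41 and -5.92 in FI organoids and 7.09 and 7.44 in MEFs, a change of -12.08 ± 1.39 (adjusted p = 5.80e-06, probe at chr11:94813075-94813134 of mm9). Col3a1, of type III collagen, had -4.31, -8.16 and -8.11 in FI organoids and 6.97 and 6.23 in MEFs, a change of -13.46 ± 1.65 (adjusted p = 1.04e-05). Col1a2, the partner chain of Col1a1, had -1.13, -4.15 and -3.67 in FI organoids and 8.74 and 8.59 in MEFs, a change of -11.65 ± 0.97. In all 3 genes FI organoids 1 stood highest among the FI samples, by over 2 log2 units, and remained at least 8 log2 units below the MEFs. Dcn, the proteoglycan decorin, was well above background on no FI array and at least 6740-fold lower. Col1a1 was well above background on 2 of the 3 FI arrays and Col3a1 was well above background on 1 of the 3 FI arrays.

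Surface and cytoskeletal markers of mesenchyme were lower too. Thy1, a surface glycoprotein of fibroblasts, had -4.10, -8.59 and -8.80 in FI organoids and 5.92 and 6.63 in MEFs, a change of -13.44 ± 1.78. Pdgfra, the platelet-derived growth factor receptor of gut mesenchyme, had -6.85, -8.69 and -8.90 in FI organoids and 2.13 and 1.18 in MEFs and was at least 394-fold lower. Vim, the intermediate filament vimentin, had -1.08, -0.66 and 0.69 in FI organoids and 7.74 and 7.96 in MEFs, a change of -8.20 ± 0.46, and it was well above background on every FI array. Its levels in crypt organoids 1 to 3 were -0.08, -0.22 and -0.10. Sparc, a matrix glycoprotein measured on every FI and MEF array, changed by -12.65 ± 0.78. The matrix genes Col5a1, Mgp, Serpinf1, Mmp2 and Col5a2, each well above background on 1 FI array, and Fn1, on 2, had measured changes of -13.84 to -12.50, and these sizes and their order depend on the background of the other FI arrays. Thy1 was well above background on 1 of the 3 FI arrays.

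Mesenchymal transcription factors were lower in 32 of 39 tested members, higher in 2 and not called in 5 (median -6.58). Twist1, a basic helix-loop-helix factor of mesenchyme, had -9.10, -9.04 and -9.24 in FI organoids and 2.21 and 2.10 in MEFs and was at least 563-fold lower (adjusted p = 1.39e-08). Zeb1, a repressor of epithelial genes such as Cdh1, had -8.55, -6.89 and -6.21 in FI organoids and 2.52 and 1.72 in MEFs, a change of -9.33 ± 0.77 (adjusted p = 2.83e-07). Twist2 was at least 742-fold lower, the homeobox gene Prrx2 changed by -11.04 ± 0.87 and the repressor gene Hic1 by -9.31 ± 0.60. Tbx3, a patterning factor that some epithelia also use, was among those that rose, by 2.46 ± 0.52. Zeb1 was well above background on 1 of the 3 FI arrays and Prrx2 was well above background on 2 of the 3 FI arrays.

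Smooth muscle genes were lower in 12 of 13 tested members and not called in 1 (median -6.23). Acta2, smooth muscle actin, had 2.51, 2.37 and 2.70 in FI organoids and 5.95 and 6.67 in MEFs, a change of -3.79 ± 0.22, and calponin Cnn1 changed by -12.21 ± 0.56. Growth factors and antagonists that gut mesenchyme sends to the epithelium were lower in 24 of 31 tested members, higher in 6 and not called in 1 (median -6.48). The BMP antagonist Grem1 was at least 1000-fold lower, and the growth factor gene Igf1 changed by -9.47 ± 1.01. The 6 that rose include the ligands the epithelium itself makes, Ihh, the Indian hedgehog ligand, at least 196-fold higher, and Bmp7, by 5.15 ± 0.37. Cnn1 was well above background on 2 of the 3 FI arrays and Igf1 was well above background on 1 of the 3 FI arrays.

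Integrin and basement membrane genes divided, with 9 of 30 tested higher, 18 lower and 3 not called (median -2.61). The higher ones include Lamb3, a chain of the epithelial laminin 332, at least 271-fold, and Itgb6, an integrin chain of epithelia, at least 68.7-fold. The lower ones include the collagen-binding integrin chain Itga11 (-11.71 ± 1.16), the laminin chain Lama4, at least 801-fold, and the type IV collagen Col4a2 (-7.33 ± 0.57). Hox genes, which record position along the body axis, were lower in 20 of 32 tested members, higher in 0 and not called in 12 (median -3.17), and under spike-in scaling 1 was higher and 19 lower. Hoxa10 had -8.78, -8.76 and -6.01 in FI organoids and 0.54 and 0.23 in MEFs, a change of -8.23 ± 0.95, and Hoxc6 had -7.92, -9.04 and -9.24 in FI organoids and 0.25 and 1.71 in MEFs and was at least 250-fold lower. Itga11 and Hoxa10 were well above background on 1 of the 3 FI arrays.

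Markers of cells that a fetal gut culture could still hold were looked at on each FI array. For endothelium, Pecam1, Cdh5 and Tie1 were well above background on no FI or MEF array, and 6 of 9 tested members of the list were lower, 1 higher (Esam, 3.96 ± 0.63) and 2 not called, a split that became 4 lower and 3 higher under spike-in scaling. For blood and immune cells, Ptprc was well above background on no FI array and on all 3 MEF arrays. Of 14 tested members 9 were lower, 1 higher (Kit, 5.98 ± 1.33) and 4 not called. For enteric neurons, glia and pacemaker cells, 8 of 15 tested were lower, 2 higher (Kit and Snap25) and 5 not called. For mesothelium, 5 of 10 tested were lower, 2 higher (Krt19 and Bicd1) and 3 not called. The summed relative signal of the endothelial list was 3.09 to 3.99 on FI arrays and 7.26 to 8.92 on MEF arrays, and that of the neuron and glia list 2.34 to 3.13 on FI arrays and 15.5 to 33.1 on MEF arrays. It was 54.5 to 138 on FI arrays and 69.5 to 109 on MEF arrays for blood and immune cells, a list that holds Lyz2, whose probe may also read the Paneth cell gene Lyz1 and had 7.10, 5.73 and 6.20 in FI organoids and 6.02 and 6.67 in MEFs. The mean level of that list was -5.97 to -5.65 on FI arrays and -3.77 to -3.33 on MEF arrays. The summed signal was 84.6 to 144 on FI arrays and 45.1 to 53.8 on MEF arrays for mesothelium, which holds the epithelial keratin gene Krt19. The mesothelial marker Msln, which also stands in the fetal spheroid list, had 3.85, 5.39 and 2.16 in FI organoids and 1.80 and 2.44 in MEFs. Against crypt organoids the mesothelium list held 2 higher and 0 lower of 7 tested (median 1.24). The neuron and glia list held 1 higher and 0 lower of 12, the immune list 0 and 1 of 10 and the endothelial list 0 and 0 of 5. Summed signals on crypt arrays were 2.08 to 2.71 for endothelium and 1.51 to 4.23 for neurons and glia. For blood and immune cells they were 149 to 159, and for mesothelium 151 to 153. The part of these lists in the results was not tested. Esam and Kit were well above background on 2 of the 3 MEF arrays.

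Detoxifying genes of the epithelium were higher in 37 of 40 tested members, none was lower, and the median change was 7.88. The number lower was 1 under quantile normalization and in the values as normalized by the submitters. Cyp2c65, a cytochrome P450 of the gut, had 4.67, 5.74 and 5.86 in FI organoids and -7.73 and -6.29 in MEFs, a change of 12.43 ± 0.59 (adjusted p = 1.53e-09). The glutathione transferase genes Gsta1 and Gsta2, close relatives whose probes may share transcripts, changed by 11.33 ± 0.32 and 11.73 ± 0.46. Genes that hepatocytes share with enterocytes split, with 12 of 24 tested hepatocyte genes higher, 4 lower and 8 not called (median 2.90). Otc, a urea cycle enzyme of liver and gut, was at least 397-fold higher, whereas Alb, albumin, was well above background on 1 FI array and on no MEF array. The bile acid and vitamin B12 list was higher in 7 of 9 tested members and not called in 2 (median 3.98), led by the bile acid receptor Nr1h4 (9.34 ± 1.12) and by the transporter Slc51a, at least 452-fold higher. That count was 5 without FI organoids 1 and 4 without either MEF sample. Cyp2c65, Gsta1 and Gsta2 were well above background on 2 of the 3 MEF arrays and Nr1h4 was well above background on 1 of the 3 MEF arrays.

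The 3 FI samples were not interchangeable. Of 15431 genes well above background on at least 1 FI array, 460 ranged over 3 log2 units or more among the 3, and these were highest in FI organoids 1 for 221 genes, in FI organoids 2 for 98 and in FI organoids 3 for 141. Of the 460, 59 were called higher than MEFs, 121 lower and 81 not called, and 199 were not tested. The widest ranges are given as values with no test. Xist, the RNA of the inactive X chromosome, had -7.87, -6.90 and 4.22 in FI organoids 1 to 3 and 1.26 and 1.83 in MEFs. The Y chromosome genes Eif2s3y, Ddx3y and Kdm5d had the reverse pattern, low in FI organoids 3. Eif2s3y had 2.84, 2.82 and -9.25 in FI organoids and 0.64 and 0.26 in MEFs. Ddx3y had 0.91, 0.72 and -9.27 in FI organoids and 0.07 and -0.42 in MEFs, and Kdm5d had -1.05, -0.74 and -8.97 in FI organoids and -2.80 and -3.56 in MEFs. FI organoids 3 therefore differ from the other 2 in sex-linked genes, and the MEF samples carry both kinds of signal.

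FI organoids 1 stood apart in genes of the distal gut. Car1, a carbonic anhydrase abundant in colon, had 5.06, -4.05 and -3.89 in FI organoids, against -3.59 and -3.75 in MEFs, and the butyrate carrier Slc5a8 had 1.88, -6.43 and -4.21 in FI organoids and -4.64 and -3.19 in MEFs. In both genes FI organoids 1 were far above every other sample. The hormone gene Insl5, of distal enteroendocrine cells, had 2.09, -3.99 and -3.35 in FI organoids and -3.19 and -3.02 in MEFs. Among trunk Hox genes, Hoxb7 had 2.22, -6.13 and 0.52 in FI organoids and -0.10 and 0.98 in MEFs, and Hoxb8 had -0.44, -9.08 and -3.31 in FI organoids and -2.99 and -2.46 in MEFs. Hoxb9 had 0.33, -7.17 and -3.90 in FI organoids and -0.37 and 1.12 in MEFs, and all 3 Hox genes were highest in FI organoids 1 and lowest in FI organoids 2. Not all Hox genes had this order. Of 26 Hox genes above background on an FI array, 12 ranged over 3 log2 units or more. Of these, 7 were highest in FI organoids 1, 3 in FI organoids 2 and 2 in FI organoids 3. Hoxa7 was lowest in FI organoids 1, with -4.37, -0.89 and 0.13 in FI organoids 1 to 3. The ileal bile acid transporter Slc10a2 was highest in FI organoids 1, with -0.75, -6.41 and -5.76 in FI organoids and -7.62 and -8.77 in MEFs. Of the colon and hindgut list 7 of 15 tested members were higher than in MEFs, 4 lower and 4 not called (median 1.30), and without FI organoids 1 the counts were 7 and 4. In that list 6 of 14 members above background ranged over 3 log2 units or more and all 6 were highest in FI organoids 1, and so were 3 of 3 such members of the bile acid and vitamin B12 list.

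Other genes were highest in FI organoids 2 or 3. Of the stomach and foregut list 5 of 15 tested members were higher than in MEFs, 2 lower and 8 not called (median 0.94). The stomach gene Gkn3 had -1.58, 1.36 and 1.56 in FI organoids and -3.62 and -3.85 in MEFs, and Anxa10 had -2.09, 0.49 and 0.25 in FI organoids and -6.92 and -5.59 in MEFs. Crypt organoids 1 to 3 had 2.01, -0.36 and 1.00 for Gkn3 and 1.53, -0.42 and 0.30 for Anxa10. Such levels are therefore not particular to FI organoids. Sst, the somatostatin gene, had -1.91, 1.65 and 2.26 in FI organoids and -6.78 and -6.24 in MEFs, and Ghrl, the ghrelin gene, had -0.05, 1.75 and 2.26 in FI organoids and -3.85 and -4.72 in MEFs. All 4 genes were lowest in FI organoids 1 among the FI samples. Snai2, a repressor of epithelial genes, had -7.84, -4.22 and -0.13 in FI organoids and 3.80 and 4.28 in MEFs, highest in FI organoids 3, and so was Lrrc17, with -7.07, -6.97 and 0.87 in FI organoids and 4.83 and 6.05 in MEFs. In crypt organoids 1 to 3 Snai2 had -2.73, -0.55 and -0.37 and Lrrc17 had -7.56, -6.84 and -8.34. The mesenchymal factor Osr2 had 0.93, -7.55 and -2.64 in FI organoids and -0.85 and -1.79 in MEFs, highest in FI organoids 1. It had -1.51, -1.37 and -2.47 in crypt organoids 1 to 3 and was well above background on all 3 crypt arrays. Of 28 fibroblast and matrix genes above background on an FI array, 12 had such a range and 11 of them were highest in FI organoids 1, the sample with the highest summed signal of that list (5.53). The part of mesenchymal RNA in these differences was not tested.

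**Figure D4:**
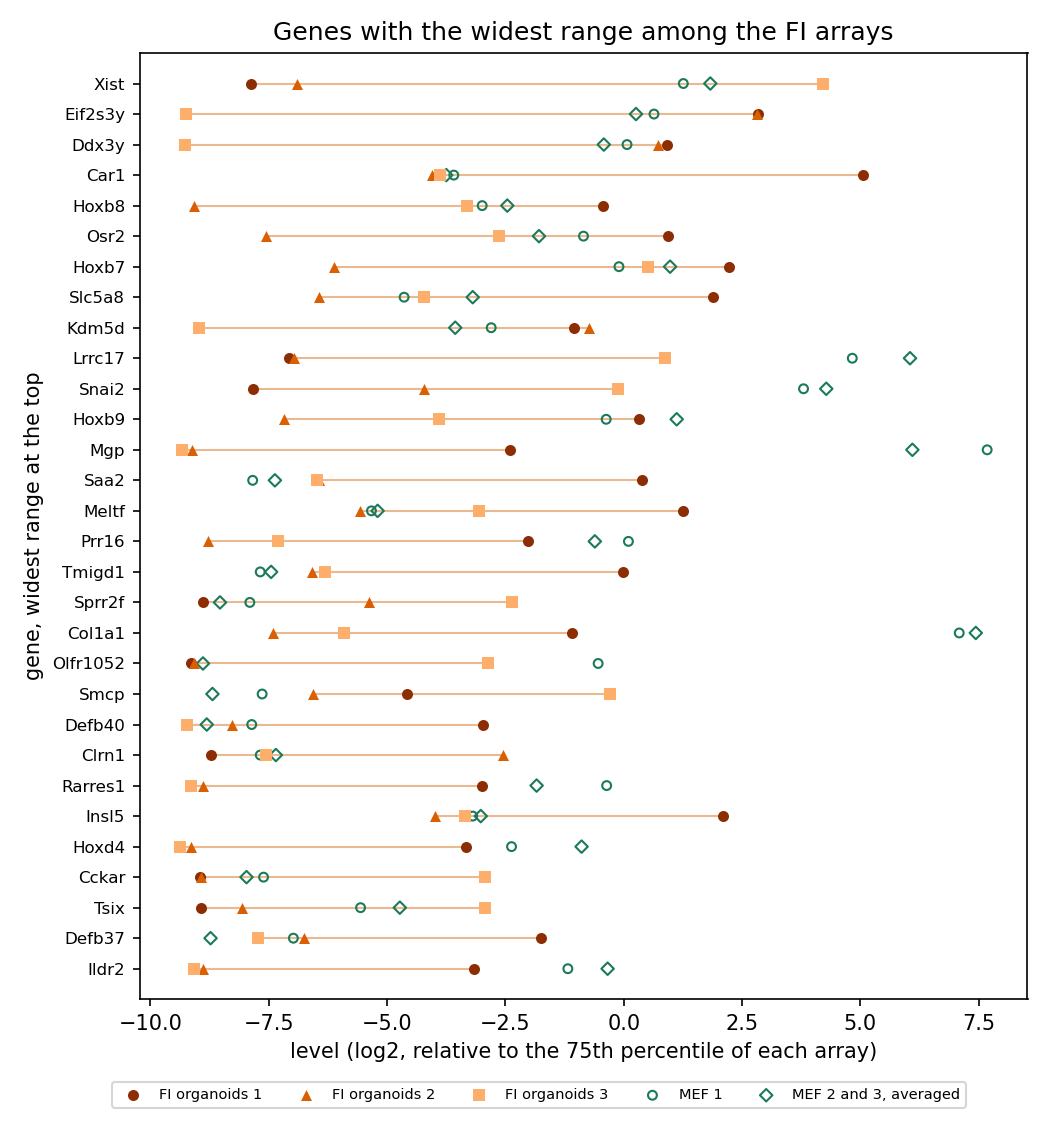
Levels (log2, relative to the 75th percentile of each array) of the 30 genes with the widest range among the FI arrays, with FI samples as filled symbols joined by a line and MEF samples as open symbols. Xist and the Y chromosome genes separate FI organoids 3, and Car1, Hoxb8 and Slc5a8 separate FI organoids 1 at the right.

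Against crypt organoids, adult epithelium hybridised to the same array design and read on the same scanner model, FI organoids differed in far fewer genes. Of 14196 genes tested in a fit over the 12 organoid samples, 1279 were called (9.01%), 831 higher (5.85%) and 448 lower (3.16%) in FI organoids, with a median change of 0.02. The epithelial list held 0 higher and 1 lower of 32 tested, the Paneth list 2 higher and 1 lower of 24 and the list of endoderm conversion factors none of 9. The levels of FI and crypt arrays correlated at 0.951 to 0.970 across the 15232 genes tested against MEFs. That set was chosen without regard to signal in crypt organoids and is not the set compared here. The count of calls depended on single samples, with 740 without crypt organoids 2, 798 without crypt organoids 3 and 825 without FI organoids 2. It was 935 without FI organoids 1, 1408 without FI organoids 3 and 1791 without crypt organoids 1, the crypt sample on the slide of the FI arrays. The share of calls that were higher was 65% here and 49.6% under median scaling.

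Called members of the fetal spheroid, YAP target and imprinted lists were all higher in FI than in crypt organoids. The lists can share members, so their counts are not independent. In the fetal spheroid list 9 of 23 tested members were higher and 0 lower (median 2.20), in the YAP list 9 of 23 and 0 (median 1.35) and in the imprinted and oncofetal list 9 of 20 and 0 (median 1.43). Bex4, a brain-expressed X-linked gene, had 3.96, 1.52 and 2.60 in FI organoids and -6.13, -6.74 and -6.01 in crypt organoids, a change of 8.98 ± 0.89 (adjusted p = 0.000425). Ereg, the growth factor epiregulin, had -2.01, -3.66 and -2.43 in FI organoids and -7.67, -7.05 and -6.77 in crypt organoids and was at least 15.4-fold higher (adjusted p = 0.00113). Dlk1, an imprinted regulator of progenitors, had 0.91, 0.62 and -0.35 in FI organoids and -3.51, -7.59 and -5.34 in crypt organoids, a change of 5.87 ± 1.04 (adjusted p = 0.00586). The FI samples lay above all crypt samples in the 3 genes. Bex4 and Dlk1 were well above background on 2 of the 3 crypt arrays.

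H19 rose by 3.10 ± 0.71 over crypt organoids, the mesothelin gene Msln by 5.27 ± 1.22, Anxa1 by 4.32 ± 0.87 and the YAP target Ccn2 by 3.86 ± 0.52, and Igf2bp1 was at least 8.76-fold higher. Efemp1, a fibulin-related matrix protein, was at least 377-fold higher, the ubiquitin ligase adaptor Klhl13 rose by 6.90 ± 1.01, Zcchc3 by 6.24 ± 0.38 and Cubn, the vitamin B12 receptor cubilin of the suckling gut, by 6.60 ± 1.00. H19 and Grb10, an imprinted growth inhibitor, lay between crypt organoids and MEFs. H19 had -2.78, -2.46 and -1.39 in FI organoids, -5.24, -5.47 and -5.21 in crypt organoids and 6.49 and 5.91 in MEFs, and Grb10 had 0.02, -2.04 and -1.28 in FI organoids, -6.58, -3.84 and -4.48 in crypt organoids and 5.14 and 5.68 in MEFs. These comparisons share the FI samples. Klhl13 and Cubn were well above background on 2 of the 3 crypt arrays and Zcchc3 was well above background on 1 of the 3 crypt arrays.

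**Figure D5:**
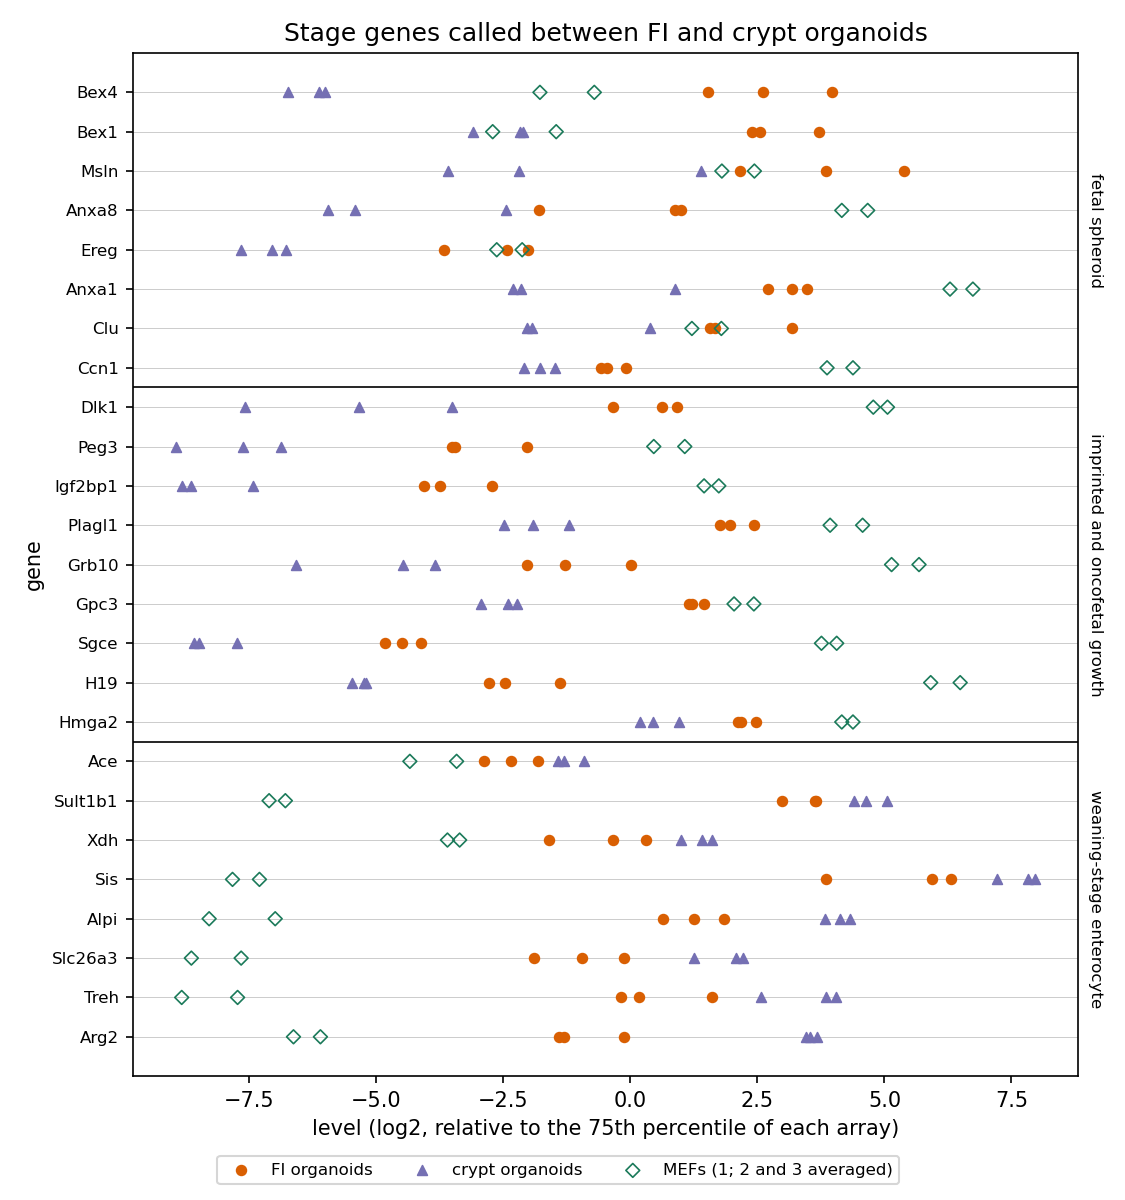
Levels (log2, relative to the 75th percentile of each array) in FI organoids, crypt organoids and MEFs of 25 genes from the fetal spheroid, imprinted and oncofetal, and weaning-stage lists that were called between FI and crypt organoids and have the same probe in both comparisons. In the upper 2 blocks FI samples lie to the right of crypt samples, and in the lowest block crypt samples lie furthest to the right.

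Of the mature enterocyte genes that were called against crypt organoids most were lower, while others were not called. Of the weaning-stage list, 0 of 18 tested members were higher, 9 lower and 9 not called (median -1.67), and of the detoxifying list 1 of 40 was higher and 18 lower (median -1.25). Of the lipid absorption list 0 of 25 were higher, 6 lower and 19 not called (median -1.39), and of the brush border list 1 of 35 was higher, 7 lower and 27 not called (median -0.35). The summed relative signal of the lipid list was 266, 234 and 645 in FI organoids 1 to 3 and 750, 1110 and 1130 in crypt organoids 1 to 3, so FI organoids 3 lay close to crypt organoids 1. Arg2 had -1.40, -1.30 and -0.13 in FI organoids and 3.45, 3.54 and 3.68 in crypt organoids, a change of -4.50 ± 0.72 (adjusted p = 0.00381). Sis had 5.93, 3.85 and 6.30 in FI organoids and 7.22, 7.96 and 7.83 in crypt organoids, a change of -2.31 ± 0.69 (adjusted p = 0.0485). All 3 FI samples lay below all 3 crypt samples in both genes, though far above the MEFs. Treh, the trehalase, changed by -2.96 ± 0.72, the chloride exchanger Slc26a3 by -2.85 ± 0.46 and Rbp2, a retinol carrier of enterocytes, by -3.78 ± 0.67.

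The suckling-stage list did not follow, with 6 of 19 tested members higher and 1 lower (median 0.03). Prdm1 rose by 2.76 ± 0.44 and Ass1 by 1.94 ± 0.49 over crypt organoids. Enteroendocrine genes were higher in 9 of 34 tested members and lower in 0 (median 0.72), among them the neurotensin gene Nts (2.93 ± 0.70) and the granule gene Scg2 (2.45 ± 0.26). The summed relative signal of that list was 346, 309 and 410 in FI organoids 1 to 3 and 337, 132 and 155 in crypt organoids 1 to 3, so crypt organoids 1 lay within the FI range and only the other crypt samples were lower. Chga had 3.95, 3.66 and 4.18 in FI organoids and 4.70, 2.94 and 3.14 in crypt organoids, highest in crypt organoids 1. Among the largest falls over all genes were those of the retinol carrier Rbp7 (-6.87 ± 0.80), Gimap5 (-6.74 ± 0.76), the protocadherin Pcdh19 (-6.40 ± 1.17) and the nucleoside carrier Slc28a3 (-6.07 ± 0.53). Crypt organoids 1 share the slide of the FI arrays and the other crypt organoids do not. Crypt organoids 1 also differed from the other crypt organoids in sex-linked genes. Xist had 4.1, -6.87 and -6.6 in crypt organoids 1 to 3, and Ddx3y had -8.97, 1.03 and 0.98. Among crypt organoids the slide and this difference therefore cannot be told apart. A comparison with crypt organoids 1 alone was added after the data were seen and shares its samples with the calls. In it 814 of the 831 higher genes were higher in every FI sample. Of the 448 lower genes, 437 were lower in every FI sample. Crypt organoids 1 helped to make these calls, so the counts were largely fixed in advance and cannot decide on the slide. The share over all tested genes was not computed. The median difference of the enteroendocrine list from crypt organoids 1 was 0.06, against 0.95 from the mean of crypt organoids 2 and 3. The same medians were 1.41 and 2.76 for the fetal spheroid list, 0.92 and 1.86 for the imprinted list, -1.49 and -1.62 for the weaning-stage list and -0.88 and -1.63 for the lipid list. With the slide as a random block 1156 genes were called. Gimap5 was well above background on 2 of the 3 FI arrays and Pcdh19 was well above background on 1 of the 3 FI arrays.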

How the data were processed

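Cy3-labelled RNA was measured on 1-colour Agilent arrays. Per the file headers, spot intensities had been background-subtracted in Agilent Feature Extraction (version 9.5.1.1 in the submitters' processing notes and in the MEF files, 10.7.1.1 in the organoid files) and deposited as processed signal. The flags for spots well above background, of the unit other, were deposited by the authors in the same files. From these, log2 intensities minus the 75th percentile of each array were computed. Names came from accessions for 24963 of 41109 probes, symbols for 5950 and synonyms for 1763, and 8433 stayed unnamed. The brightest probe stood for each of 8595 genes with several probes, out of 19718 genes. A gene was tested if 1 of the compared groups, or both, showed it well above background without exception.

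MEF arrays 2 and 3 differed by 0.073 (log2, robust SD), against 0.197 to 0.536 for other pairs, and were counted as 1 sample. The noise between repeated spots, combined over the 2 arrays as for a difference of single spots, was larger, at 0.086. limma 3.58.1 in R 4.3.3 fitted 17 samples with a common spread for MEFs and the 12 organoid samples alone for crypt organoids. P-values were adjusted over all tested genes by Benjamini-Hochberg. Genes named are anchors and, per list, the 4 called members with the largest change in the majority direction and 2 against it, plus the 12 largest changes each way (6 for crypt organoids) and the 12 widest ranges among FI arrays. Others were added after their values were seen, and some named by the rule are not reported here. The comparisons and gene lists were chosen with earlier results of these data known. Alternatives covered background correction, scaling, filters, probe choice, blocks and left-out samples. Scripts were tested on simulated data.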

Additional observations from a re-analysis of the deposited data

How the results depend on the processing

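Of 7179 genes called against MEFs, the total stayed within 1.5 times in each alternative that was run. Under spike-in scaling 7387 were higher and 2201 lower, and 77% of calls were higher. Requiring signal above background in both groups gave 4981 calls of 12560 genes. Leaving out 1 sample at a time gave 6957 to 7148 calls. Against crypt organoids normexp gave 473 higher and 380 lower, median scaling 712 higher and 723 lower, and requiring signal in both groups 952 calls. Leaving out 1 sample gave 740 to 1791 calls, 487 to 1131 higher and 245 to 660 lower. With replicate numbers as a block 7340 genes were called against MEFs and 1170 against crypt organoids. Those numbers were not taken as pairs, since same-numbered samples deviated together with correlations of -0.003, -0.018 and 0.011 (FI with MEF) and 0.11, -0.241 and 0.209 (FI with crypt). With the slide as a random block the counts were 7189 and 1156. Against MEFs no direction turned among 46 marker genes in the alternatives that tested them, and Lgr5 and Lyz1 were the ones that lost their call. Requiring signal in both groups left 30 of the 46 untested, and single genes were not followed in the alternatives against crypt organoids. The causes of these shifts were not tested. Signal over background limits the size of changes in dim genes, whether given as lower bounds or as measured.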

Other observations

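Genes that present antigen to T cells were higher in FI organoids for 10 of 18 tested members, lower for 2 and not called for 6 (median 1.21). The class I gene H2-K1 had 6.06, 6.15 and 6.34 in FI organoids and 3.58 and 3.02 in MEFs, a change of 2.89 ± 0.24 (limma, adjusted p = 2.64e-07), and H2-Q1 was at least 915-fold higher. Class I genes are close relatives, so their probes may share transcripts. The class II gene H2-Ab1 changed by 2.59 ± 0.96, while the class II gene H2-Eb1 (-1.56 ± 0.29) and B2m, the light chain of class I molecules (-1.42 ± 0.40), were lower. The number lower in this list was 1 under normexp background correction and 0 under spike-in scaling. Interferon response genes had the other balance, with 4 of 32 tested higher, 14 lower and 14 not called (median -1.46). The guanylate-binding protein gene Gbp2 changed by -6.63 ± 0.70 and the ubiquitin-like modifier Isg15 by -4.76 ± 0.98. The interferon count rested in part on single samples and on scaling: 7 were lower without MEF 1, none was higher without the averaged MEF 2 and 3, and under spike-in scaling 7 were higher and 8 lower. Gbp2 was well above background on 1 of the 3 FI arrays.

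Metabolic genes beyond those of digestion were also higher in part. Of genes of mitochondria and fatty acid oxidation 16 of 30 tested were higher and none lower (median 1.05), or 29 under spike-in scaling, with Bdh1, a ketone body dehydrogenase, at 4.52 ± 0.42. Retinoid and iron genes were higher in 11 of 20 tested members, lower in 5 and not called in 4 (median 1.83), with Rbp2 at least 53.7-fold higher, the iron reductase gene Cybrd1 at 4.18 and the retinoic acid binding protein Crabp1 at -10.85. Against crypt organoids 1 of 17 tested members of that list was higher and 6 were lower. The higher one was Isx, a homeobox repressor of retinoid and carotenoid uptake, with -1.11, -3.34 and -3.78 in FI organoids and -8.41, -8.63 and -8.85 in crypt organoids, at least 15-fold higher (adjusted p = 0.00155). The retinoid enzyme gene Bco1, which Isx represses in the mouse gut, was lower in FI organoids, with a change of -3.41 ± 0.80, and a link between the 2 genes was not tested. Cholesterol synthesis genes were higher in 2 of 25 tested members, lower in 7 and not called in 16 (median -0.40), a direction that turned under spike-in scaling, with 8 higher and 1 lower (median 0.56). Crabp1 was well above background on 1 of the 3 FI arrays.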
